A study of Homo sapiens with 9 samples.

Results

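The response of cultured human liver tumour cells to acetaminophen (paracetamol) was followed in cells that also received caffeine. Acetaminophen with caffeine (10 mM and 2 mM) was set against caffeine alone (2 mM), with 1 library on each side, 2 of the 9 libraries of the series. They are called both drugs and caffeine alone below. All 18237 genes that passed the count filter were compared, out of 63677 gene identifiers. The cells are HuH-7, an established hepatocellular carcinoma line that keeps part of the hepatocyte programme, and all 9 cultures are of this line. The series also holds acetaminophen alone (10 mM) with an untreated control, and acetaminophen (10 mM) added to exosomes (from 1 ml of serum) with exosomes alone. These 2 pairs share no library with the caffeine pair and are given beside it as other backgrounds. The 3 remaining libraries received arsenic (5 µM, 15 µM, or 5 µM with copper at 5 µM) and enter only the models across all 9 libraries. The length of exposure is not given in the labels.

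Acetaminophen is cleared in hepatocytes by glucuronidation and sulfation, and a part of it is oxidised by cytochrome P450 enzymes to a reactive quinone imine that glutathione traps. Reactive metabolites and oxidants are sensed through the NRF2 pathway, and shortage of amino acids or unfolded protein in the endoplasmic reticulum through the kinases of the integrated stress response. Caffeine is a methylxanthine that blocks adenosine receptors, inhibits cyclic nucleotide phosphodiesterases at higher doses, releases calcium through ryanodine receptors and is itself oxidised by cytochromes of the CYP1A family.

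The pair holds the deepest libraries of the series, with 5430432 counts on genes for acetaminophen with caffeine and 8227906 for caffeine, against 658725 to 3024317 in the 4 libraries of the other backgrounds. Levels are counts scaled to library size (CPM) by TMM, a scaling that sets the bulk of genes equal between libraries. At 50 CPM the exact 95% counting interval runs from 44.2 to 56.5 CPM with acetaminophen and caffeine and from 45.3 to 54.9 CPM with caffeine alone. No culture was repeated, so intervals cover counting error alone, PCR copies cannot be told from separate molecules in these reads, and no p-value is given for the pair. In whole cultures, fewer cells with a transcript and less of it in each cell cannot be told apart. Log2 ratios of the pair were higher for genes of higher GC content (Pearson's r 0.217 across 13658 genes, which are not independent replicates). The median log2 ratio was -0.34 in the lowest of 4 equal groups of genes by GC and 0.31 in the highest. List medians are therefore followed by their value with this trend and that of transcript length removed.

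A gene is called apart when its ratio, with 0.5 prior counts, is at least 2 either way and its counting interval excludes 1. By this rule 2293 genes (12.6%) were higher and 2371 (13.0%) lower in acetaminophen with caffeine than in caffeine alone, together 25.6% of the genes compared. Counts and shares of the lists below are to be read beside these 12.6% and 13.0%. The median log2 ratio over all genes was 0.00, with quartiles of -0.73 and 0.69. Ratios of at least 8 with an interval excluding 1 were seen for 305 genes higher and 300 lower. Among nuclear protein-coding genes 1879 of 13893 (13.5%) were higher and 1843 (13.3%) lower. The shares apart higher and lower were 17.2% and 10.2% among the 1777 genes at 100 CPM or more.

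**Figure D1:**
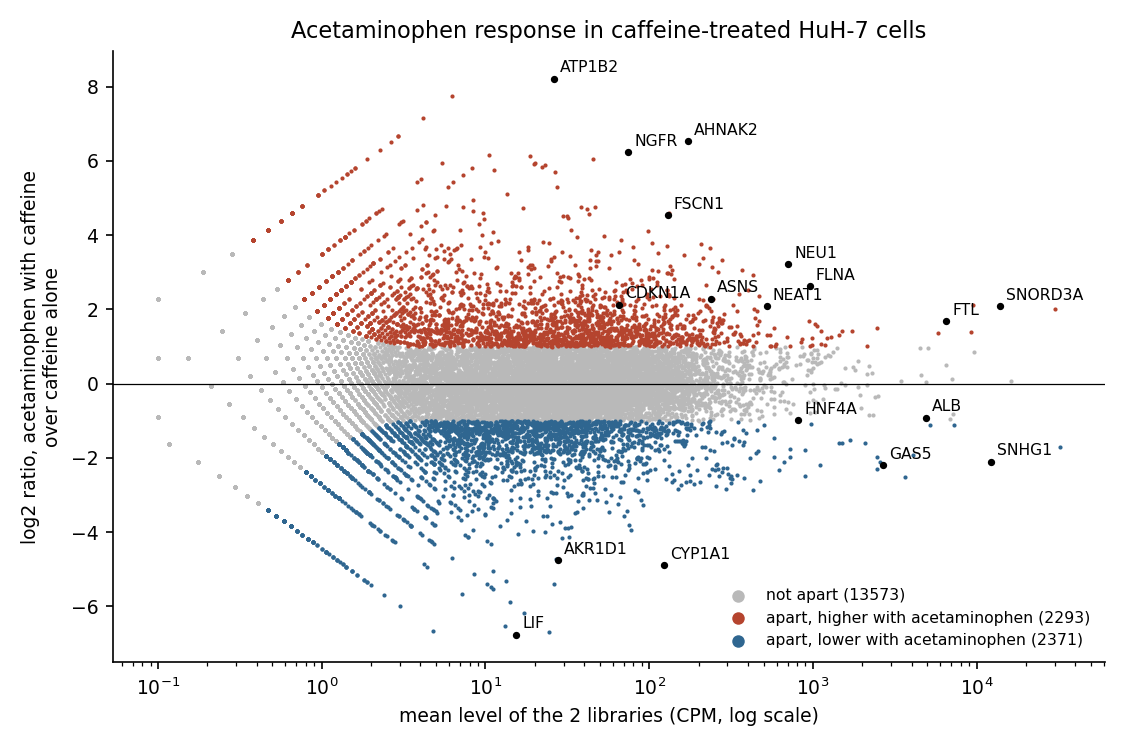
Each point is a gene of the acetaminophen and caffeine pair. The horizontal axis gives the mean level of both libraries in CPM on a log scale and the vertical axis the log2 ratio of acetaminophen with caffeine over caffeine alone; red points are the 2293 genes apart higher, blue points the 2371 apart lower and grey points the rest. Genes such as ATP1B2 and NGFR lie far above 0 from a low level with caffeine alone, while LIF and CYP1A1 lie far below it.

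Of the 15 protein-coding genes farthest above their caffeine level, all but NPTXR had 0 to 31 counts with caffeine alone. ATP1B2, a beta subunit of the sodium pump best known from brain, had 277 counts with acetaminophen and caffeine and 1 count with caffeine alone, 52.3 CPM with both drugs and 0.117 CPM with caffeine alone (ratio 446, interval 79.4 to 17688). The giant scaffold protein gene AHNAK2 was at 341 CPM with both drugs and 3.64 CPM with caffeine alone (ratio 93.9, 65.9 to 139). NGFR, the low-affinity neurotrophin receptor, stood at 146 CPM with both drugs and 1.88 CPM with caffeine alone (ratio 78.0, 47.7 to 137). These 3 genes were also low in the untreated control, at 0.968, 0.968 and 3.87 CPM.

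Other genes of the same ranking were MAP2, GRM2, NPTXR, DLX2 and PODXL. MAP2, a neuronal microtubule protein, was at 22.3 CPM with both drugs and 0.352 CPM with caffeine alone. The metabotropic glutamate receptor gene GRM2 stood at 20.8 CPM with both drugs and 0.235 CPM with caffeine alone. NPTXR, a receptor of neuronal pentraxins and the most abundant of these genes, was at 255 CPM with both drugs and 10.4 CPM with caffeine alone. With caffeine alone the first 2 of these genes were at or under the floor of 3 counts, 0.352 CPM. The homeobox gene DLX2 had 66 counts with acetaminophen and caffeine and 0 with caffeine alone, so it was at least 35.4-fold higher, taking 3 counts as the floor of the caffeine library, and the lower limit of its counting interval was 28.0-fold. PODXL, an anti-adhesive sialomucin, was at 52.0 CPM with both drugs and 0.938 CPM with caffeine alone. Of the 4 neuronal markers compared, the tubulin gene TUBB3 was apart higher together with MAP2, at 18.3 CPM with both drugs and 1.52 CPM with caffeine alone. The synaptic fusion gene SNAP25 was apart lower, at 2.46 CPM with both drugs and 7.16 CPM with caffeine alone. The markers SYN1, STMN2 and ELAVL4 had 0 or 1 count in each library, so these defining neuronal genes were at or near 0.

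Among the genes farthest below their caffeine level were ARG1, SLC2A2, LIF and EPO. ARG1, the arginase of the urea cycle, had 2 counts with acetaminophen and caffeine and 238 with caffeine alone, 0.378 CPM with both drugs and 27.9 CPM with caffeine alone (ratio 0.0135, interval 0.00163 to 0.0494). SLC2A2, the liver glucose transporter GLUT2, was at 0.378 CPM with both drugs and 21.7 CPM with caffeine alone. With both drugs these genes lay at or under the floor of 3 counts, 0.567 CPM, so the size of their ratios is imprecise. LIF, a cytokine of the interleukin 6 family, was at 0.189 CPM with both drugs and 30.6 CPM with caffeine alone. EPO, the erythropoietin gene, had no count with both drugs and was at 9.50 CPM with caffeine alone. With 3 counts as the floor of the acetaminophen-caffeine library, its ratio was at most 0.0597, and the upper limit of its counting interval was 0.0751. In the untreated control LIF was at 9.68 CPM.

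Of the 12 protein-coding genes that were most abundant in either library, 3 were apart, all higher. The ferritin light chain gene FTL was at 9888 CPM with both drugs and 3063 CPM with caffeine alone. The translation elongation factor gene EEF2 was at 8397 CPM with both drugs and 3255 CPM with caffeine alone. CALR, a calcium-binding chaperone of the endoplasmic reticulum, was at 3645 CPM with both drugs and 1281 CPM with caffeine alone. The plasma protein genes AFP and ALB were at 4724 and 3389 CPM with both drugs, against 9076 and 6376 CPM with caffeine alone. Both lay below the caffeine level by slightly less than the fold that counts as apart. FN1, fibronectin, differed little, at 4978 CPM with both drugs and 4796 CPM with caffeine alone.

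For genes of at least 20 CPM on average in the pair, the untreated control served to see which library of the pair stood away from it. Of the 1000 genes apart higher, the control level was nearer on the log scale to that of acetaminophen with caffeine for 153 (15.3%) and nearer to that of caffeine alone for 847. Of the 855 genes apart lower, it was nearer to acetaminophen with caffeine for 359 (42.0%) and nearer to caffeine alone for 496. Most of the higher genes were thus high against both caffeine alone and the control, whereas the lower genes were split more evenly. The library with acetaminophen alone, which received the same dose, gave a like split: it was nearer to acetaminophen with caffeine for 202 of the higher genes (20.2%) and 377 of the lower genes (44.1%), and nearer to caffeine alone for 798 and 478. The control is the shallower library, at 951816 counts, and its level of a single gene is the less precise.

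Immediate early genes, which encode transcription factors and feedback phosphatases switched on within minutes by growth factors, cyclic AMP or stress, were the list with the largest share apart higher. Of 27 members, 16 (59.3%, beside 12.6% of all genes) were apart higher and 2 lower, with a median log2 ratio of 1.44 (1.10 with the GC and length trend removed). The AP-1 subunit genes JUNB, JUND and JUN were at 59.1, 229 and 187 CPM with both drugs, against 11.8, 59.7 and 56.1 CPM with caffeine alone. The orphan nuclear receptor genes NR4A1 and NR4A3 were at 27.0 and 7.94 CPM with both drugs, against 7.16 and 0.821 CPM with caffeine alone. The growth-responsive gene IER5 was at 105 CPM with both drugs and 18.3 CPM with caffeine alone. DUSP1, a phosphatase that switches off MAP kinases, was at 97.7 CPM with both drugs and 28.7 CPM with caffeine alone. FOS, the founding member of its family, was not apart, at 13.2 CPM with both drugs and 7.16 CPM with caffeine alone. Nor was its relative FOSL2, at 86.9 CPM with both drugs and 62.1 CPM with caffeine alone. The members apart lower were MYC and DUSP6. MYC, a growth-promoting transcription factor, was at 45.2 CPM with both drugs and 136 CPM with caffeine alone. DUSP6, the feedback phosphatase of ERK kinases, was at 11.3 CPM with both drugs and 79.3 CPM with caffeine alone. On the other backgrounds the list median was -0.02 with exosomes and -0.38 with neither, beside all-gene medians of 0.05 and -0.20.

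The core of the cyclic AMP response element, ACGTCA on either strand, was searched for in RefSeq promoters (250 bases before to 50 after the start). It lies in 8.32% of 27305 promoters and in 7 of 19 promoters of immediate early genes (36.8%). These 7 are shown so that members with and without the core can be set side by side. Caffeine acts on cyclic AMP breakdown, and both libraries of the pair received it at the same dose. The sequences are from GRCh38.p14, read 5′ to 3′ on the strand of the gene, with the core in capitals, which in DUSP1 is the full palindrome made of overlapping cores on both strands.
FOS: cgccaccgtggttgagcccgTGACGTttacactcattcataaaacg
FOSB: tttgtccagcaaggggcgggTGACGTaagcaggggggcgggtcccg
FOSL2: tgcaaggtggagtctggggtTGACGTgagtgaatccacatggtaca
JUND: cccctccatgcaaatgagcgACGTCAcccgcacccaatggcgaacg
EGR1: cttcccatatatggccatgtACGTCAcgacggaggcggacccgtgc
DUSP1: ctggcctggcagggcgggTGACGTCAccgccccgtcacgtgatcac
NR4A3: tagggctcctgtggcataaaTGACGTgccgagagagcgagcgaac

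They lie at chr14:75278744-75278789 (plus strand, FOS), chr19:45467916-45467961 (plus, FOSB), chr2:28392772-28392817 (plus, FOSL2), chr19:18281684-18281729 (minus, JUND), chr5:138465392-138465437 (plus, EGR1), chr5:172771293-172771338 (minus, DUSP1) and chr9:99821840-99821884 (plus, NR4A3). The match nearest to the annotated start begins 25 (NR4A3) to 123 (DUSP1) bases before it. In DUSP1 the capitals are 2 overlapping matches, and EGR1, JUND, DUSP1 and NR4A3 hold further matches. Among members whose promoter holds the core, 5 of 7 were apart higher with a median of 1.76. Among those without it, 10 of 12 were apart higher and 1 lower, with a median of 1.57. Over all protein-coding genes with a promoter in the table, the core was in 9.54% of those apart higher, 9.04% of those apart lower and 11.9% of the rest.

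The integrated stress response, the programme that ATF4 runs to restore amino acid supply, was higher without exception among its apart members. Of 27 genes, 10 (37.0%) were apart higher and 0 lower. The median log2 ratio was 0.86 (0.61 without the GC and length trend, 0.69 with absent genes at their 3-count bound). ASNS, asparagine synthetase, was at 396 CPM with both drugs and 80.8 CPM with caffeine alone (ratio 4.91, interval 4.50 to 5.35). CHAC1, which degrades glutathione, was at 83.0 CPM with both drugs and 19.2 CPM with caffeine alone. The transcription factor genes ATF3, ATF4, DDIT3 and CEBPB were at 62.4, 734, 63.1 and 72.6 CPM with both drugs, against 14.8, 359.7, 29.3 and 35.3 CPM with caffeine alone. SESN2 and DDIT4, inhibitors of mTORC1 signalling, were at 204 and 138 CPM with both drugs, against 68.2 and 49.97 CPM with caffeine alone. TRIB3, a pseudokinase that dampens ATF4, was the other way round without being apart, at 59.5 CPM with both drugs and 115 CPM with caffeine alone. On the other backgrounds the list median was 0.02 with exosomes and -0.67 with neither. ASNS was at 80.3 CPM with acetaminophen and exosomes and 31.4 CPM with exosomes alone, and at 58.4 CPM with acetaminophen alone and 40.6 CPM in the control.

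The amino acid response element to which ATF4 and CHOP complexes bind was searched for as TGATGNAA on either strand. It was in 5 of 24 promoters of the list (20.8%) and in 3.67% of all promoters. The promoters of the 3 members with the element that were apart higher are shown, with the element in capitals; those of CHAC1 and ATF3 lie farther from the start than that of ASNS.
ASNS: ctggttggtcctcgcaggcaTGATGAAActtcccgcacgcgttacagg
ATF3: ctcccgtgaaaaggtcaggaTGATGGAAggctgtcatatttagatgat
CHAC1: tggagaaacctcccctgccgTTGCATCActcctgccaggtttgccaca

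These windows lie at chr7:97872449-97872496 (minus strand, ASNS), chr1:212565196-212565243 (plus, ATF3) and chr15:40953242-40953289 (plus, CHAC1) of GRCh38.p14, and the first base of the element lies 68, 191 and 209 bases before the start in ASNS, ATF3 and CHAC1. Members with the element had a median log2 ratio of 2.11 with 3 of 5 apart higher, and members without it 0.61 with 7 of 19 apart higher. A match is a word in the sequence, and no binding was measured. Among all protein-coding genes the element was in 0.934% of those apart higher, 2.69% of those apart lower and 1.92% of the rest, so it did not go with higher levels in general.

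Chaperones of the endoplasmic reticulum were higher for 7 of 22 members (31.8%, beside 12.6% of all genes) and lower for 3 (13.6%, beside 13.0%). MANF and CRELD2, secreted on depletion of calcium from the endoplasmic reticulum, were at 67.5 and 129 CPM with both drugs, against 16.8 and 37.3 CPM with caffeine alone. In the control they were at 98.7 and 45.5 CPM, so with both drugs MANF was below the control and CRELD2 above it. With acetaminophen alone they were at 19.7 and 28.9 CPM, MANF being apart lower than in the control. HSPA5, the chief chaperone of this compartment, was at 1331 CPM with both drugs and 640.5 CPM with caffeine alone. XBP1, the transcription factor of the IRE1 branch, was lower, at 272 CPM with both drugs and 639.8 CPM with caffeine alone. So was the oxidase gene ERO1A, at 16.6 CPM with both drugs and 46.7 CPM with caffeine alone. Heat shock protein genes had 6 higher and 3 lower of 24, the share lower (12.5%) being close to that of all genes. HSPA6, a strictly inducible HSP70, was at 11.3 CPM with both drugs and 1.06 CPM with caffeine alone. The cochaperone gene BAG3 was at 48.0 CPM with both drugs and 11.4 CPM with caffeine alone. The mitochondrial cochaperonin gene HSPE1 was lower, at 4.72 CPM with both drugs and 24.3 CPM with caffeine alone.

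The NRF2 list was split between its members. Of 28 targets 9 were apart higher (32.1%) and 5 lower (17.9%). The median log2 ratio was 0.33 (0.51 without the GC and length trend). HMOX1, heme oxygenase, was at 239.6 CPM with both drugs and 82.0 CPM with caffeine alone. Both ferritin genes were higher, FTL as given above and the heavy chain gene FTH1 at 855 CPM with both drugs and 302 CPM with caffeine alone. The classical NRF2 target NQO1, a quinone reductase, was lower, at 11.9 CPM with both drugs and 44.8 CPM with caffeine alone. So was the export pump gene ABCC2, at 33.6 CPM with both drugs and 170.0 CPM with caffeine alone. For NQO1 both caffeine libraries lay far below the control, at 602 CPM, and acetaminophen alone, at 684 CPM. With exosomes NQO1 was not apart, at 371 CPM with acetaminophen and exosomes and 635 CPM with exosomes alone. TXNRD1, GCLM, GCLC and SLC7A11, which supply reduced thioredoxin and glutathione, were not apart, at 386, 39.1, 59.5 and 58.8 CPM with both drugs, against 338, 34.5, 30.7 and 45.7 CPM with caffeine alone. On the other backgrounds HMOX1 was not apart with exosomes, at 20.4 CPM with acetaminophen and exosomes and 30.2 CPM with exosomes alone, and was apart lower with neither, at 12.7 CPM with acetaminophen alone and 31.9 CPM in the control. The glutathione peroxidase genes GPX1 and GPX3 were at 167 and 241 CPM with both drugs, against 60.1 and 94.3 CPM with caffeine alone. The glutathione transferase gene GSTO1 was lower, at 24.4 CPM with both drugs and 103 CPM with caffeine alone.

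Targets of p53, the damage-sensing transcription factor, had 10 members apart higher (41.7%) and 3 lower (12.5%) of 24. The median log2 ratio was 0.92 (0.89 without the GC and length trend). CDKN1A, the inhibitor p21 of cyclin-dependent kinases, was at 106 CPM with both drugs and 24.2 CPM with caffeine alone (ratio 4.39, 3.73 to 5.17). The ferredoxin reductase gene FDXR was at 41.2 CPM with both drugs and 8.45 CPM with caffeine alone. MDM2, which targets p53 for degradation, was lower, at 22.9 CPM with both drugs and 50.4 CPM with caffeine alone. So was AEN, an apoptosis-enhancing nuclease, at 15.3 CPM with both drugs and 52.4 CPM with caffeine alone. Of the BCL2 family, which sets the threshold of mitochondrial cell death, 4 of 15 members were apart higher (26.7%) and 2 lower (13.3%). The share lower was close to the 13.0% of all genes, and the median was 0.75 (0.52 without the GC and length trend). Among those higher, the killer genes BIK and PMAIP1 were at 10.4 and 20.4 CPM with both drugs, against 0.821 and 4.46 CPM with caffeine alone. The survival gene BCL2L1 was lower, at 47.4 CPM with both drugs and 198 CPM with caffeine alone. Genes of the NF-kB and inflammatory list were lower more often than higher, 6 against 1 of 20. The neutrophil chemokine genes CXCL1 and CXCL8 were at 1.51 and 2.27 CPM with both drugs, against 16.5 and 20.1 CPM with caffeine alone. CCL20, which attracts lymphocytes and dendritic cells, was at 24.9 CPM with both drugs and 146 CPM with caffeine alone. The acute phase gene SAA1 was the member apart higher, at 14.9 CPM with both drugs and 1.41 CPM with caffeine alone.

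**Figure D2:**
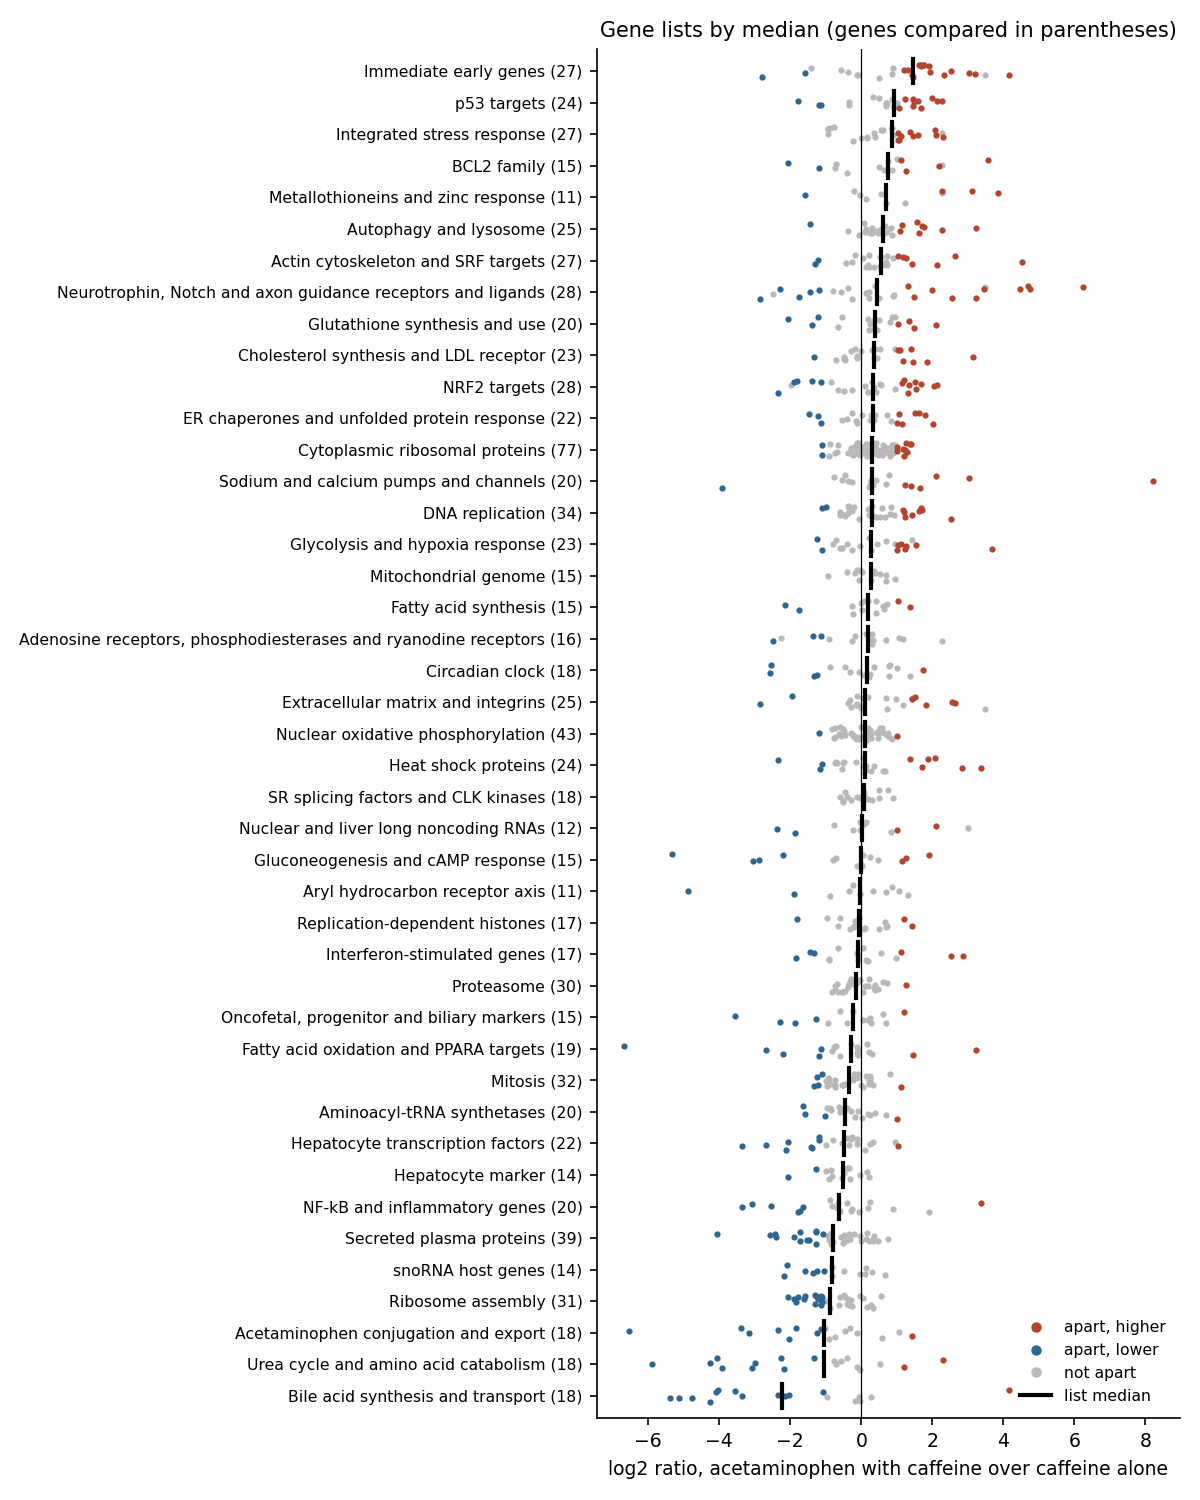
Each row is a gene list with at least 10 genes compared, ordered by its median; each point is a gene placed by its log2 ratio of acetaminophen with caffeine over caffeine alone, red where apart higher, blue where apart lower and grey otherwise, and the black bar is the list median. Immediate early genes lie at the top (median 1.44) and genes of bile acid synthesis and transport at the bottom (median -2.24).

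Genes of bile acid synthesis and transport lay lowest of the lists with at least 10 genes compared. Of 18 genes, 12 (66.7%, beside 13.0% of all genes) were apart lower and 1 higher, with a median log2 ratio of -2.24 (-2.37 without the GC and length trend, -2.09 with absent genes at their bound). AKR1D1, the reductase that shapes the sterol ring of bile acids, was at 1.89 CPM with both drugs and 53.6 CPM with caffeine alone. SLC51B and SLC51A, the subunits of the basolateral bile acid exporter, were at 1.13 and 0.189 CPM with both drugs, against 51.3 and 4.81 CPM with caffeine alone. The bile acid receptor gene NR1H4 (FXR) was at 6.99 CPM with both drugs and 72.1 CPM with caffeine alone. Its target NR0B2, the repressor SHP, was at 0.378 CPM with both drugs and 7.62 CPM with caffeine alone. FGF19, another target of this receptor, was at 4.91 CPM with both drugs and 22.2 CPM with caffeine alone. The canalicular pump gene ABCB11 had no count with both drugs and was at 1.76 CPM with caffeine alone. CYP27A1, of the alternative synthesis route, was not apart at 93.5 CPM with both drugs and 106 CPM with caffeine alone. CYP7A1, the rate-limiting enzyme of the main route, had 0 counts with both drugs and 4 with caffeine alone and did not pass the filter. The list median was also below that of all genes on the other backgrounds, at -0.82 with exosomes and -1.67 with neither. The list summed to 859 CPM with both drugs, 1224 CPM with caffeine alone and 824 CPM in the control. In the control AKR1D1, SLC51B and NR1H4 were at 14.5, 18.4 and 120 CPM, above their levels with both drugs.

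Enzymes that handle acetaminophen itself were in large part lower. Of 18 genes of conjugation and export compared, 9 were apart lower and 1 higher, with a median of -1.05 (-0.84 without the GC and length trend). The sulfotransferase genes SULT1E1 and SULT2A1 were at 0.189 and 16.6 CPM with both drugs, against 26.3 and 59.6 CPM with caffeine alone. The glutathione transferase gene GSTA1 was at 2.27 CPM with both drugs and 21.0 CPM with caffeine alone. ABCG2, an export pump, was at 1.13 CPM with both drugs and 12.9 CPM with caffeine alone. GSTP1, a glutathione transferase scarce in normal hepatocytes, was the member apart higher, at 1642 CPM with both drugs and 612 CPM with caffeine alone. The control, at 1428 CPM, was nearer to the library with both drugs. With acetaminophen alone GSTP1 was apart lower than in the control, at 162 CPM. With exosomes it was apart higher, at 1857 CPM with acetaminophen and exosomes and 866 CPM with exosomes alone. In the list of cytochromes that activate acetaminophen and their partners, 2 of 6 were apart higher and 3 lower. CYP2E1 had 1 count with acetaminophen and caffeine and 5 with caffeine alone, and CYP1A2 had 0 with both drugs and 1 with caffeine alone. CYP2D6 was apart higher, with 19 counts with both drugs and 6 with caffeine alone, and CYP3A5 and CYP3A7 were apart lower, with 13 and 3 counts with both drugs, against 52 and 19 with caffeine alone. Their sequences are close to those of relatives, so these low counts are uncertain. POR, the reductase that supplies these cytochromes with electrons, was higher, at 613 CPM with both drugs and 246 CPM with caffeine alone. CYB5A, their cytochrome b5 partner, was lower, at 20.8 CPM with both drugs and 52.6 CPM with caffeine alone.

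CYP1A1 (ENSG00000140465), the cytochrome most readily induced through the aryl hydrocarbon receptor, was at 7.94 CPM (42 counts) with both drugs and 237 CPM (2019 counts) with caffeine alone (ratio 0.0335, interval 0.0241 to 0.0455). The control stood between, at 67.7 CPM. On the other backgrounds it was at 56.1 CPM with acetaminophen and exosomes and 61.7 CPM with exosomes alone, and at 39.4 CPM with acetaminophen alone and 67.7 CPM in the control, and was not apart in either pair. The receptor gene AHR was at 88.8 CPM with both drugs and 114 CPM with caffeine alone. Its target genes AHRR, CYP1B1 and TIPARP were at 2.83, 2.08 and 59.1 CPM with both drugs, against 1.76, 0.821 and 32.4 CPM with caffeine alone, none of them apart. Only CYP1A1 and NQO1 of the 11 genes of the axis that were compared were apart, both lower. The promoter of CYP1A1, the 250 bases before its start at chr15:74725529-74725778 (GRCh38.p14, minus strand, RefSeq), holds the core of the receptor's response element, GCGTG on either strand, in capitals, 57 bases before the start.
CYP1A1: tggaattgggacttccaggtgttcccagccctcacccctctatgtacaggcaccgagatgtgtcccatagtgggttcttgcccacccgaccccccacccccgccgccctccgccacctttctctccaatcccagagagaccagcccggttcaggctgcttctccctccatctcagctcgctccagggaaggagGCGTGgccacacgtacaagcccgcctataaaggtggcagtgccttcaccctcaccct

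In promoters of 300 bases, from 250 before to 50 after the start, that core is common: it is in 36.3% of all promoters and in 7 of 9 of the axis. The stretch shown is the first 250 of these bases, so it ends at the start site and does not hold the distal enhancer for which this gene is known.

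Among other hepatocyte lists, those of the urea cycle and of secreted proteins had more members apart lower than higher, while the gluconeogenesis list was split, with 4 of 15 lower and 3 higher. In the urea cycle and amino acid list 9 of 18 genes were apart lower and 2 higher, with a median of -1.05 (-1.13 without the GC and length trend). CPS1, the entry enzyme of the urea cycle, was at 4.91 CPM with both drugs and 42.3 CPM with caffeine alone. HAL, which breaks down histidine, was at 1.70 CPM with both drugs and 29.7 CPM with caffeine alone. The members apart higher were PRODH and ASL. PRODH, proline dehydrogenase and a p53 target, was at 41.4 CPM with both drugs and 8.45 CPM with caffeine alone. The urea cycle gene ASL was at 257 CPM with both drugs and 113 CPM with caffeine alone. Of 39 secreted plasma proteins 13 (33.3%) were apart lower and 0 higher, with a median of -0.81 (-0.58 with the GC and length trend removed). The clotting factor gene F7 was at 8.504 CPM with both drugs and 51.5 CPM with caffeine alone. The copper carrier gene CP was at 28.9 CPM with both drugs and 154 CPM with caffeine alone. FABP1, the liver fatty acid binding protein, was at 84.8 CPM with both drugs and 543 CPM with caffeine alone.

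Hepatocyte transcription factors had 8 of 22 genes apart lower (36.4%) and 1 higher (4.55%). Their median was -0.48 (-0.72 without the GC and length trend). The list summed to 1494 CPM with both drugs, 2431 CPM with caffeine alone and 1432 CPM in the control. Single members differed from this sum, and NR1H4 was at 120 CPM in the control. PPARA, a fatty acid receptor, was at 49.5 CPM with both drugs and 134 CPM with caffeine alone. HNF4A, the central factor of the hepatocyte programme, was at 543 CPM with both drugs and 1075 CPM with caffeine alone and was just short of being apart. PCK1, the cytosolic enzyme of gluconeogenesis and a cyclic AMP target, was at 4.91 CPM with both drugs and 37.2 CPM with caffeine alone. It had no count in the acetaminophen library or in the control, so both caffeine libraries stood above these. PC, pyruvate carboxylase, was higher, at 1805 CPM with both drugs and 756 CPM with caffeine alone.

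The labelled cell type was checked against markers. The 14 hepatocyte markers compared summed to 14267 CPM with acetaminophen and caffeine and 21333 CPM with caffeine alone, with 18679 CPM in the control. Endothelial markers summed to 1.70 CPM with both drugs and 2.35 CPM with caffeine alone, with PECAM1 at 0 counts in both, and the red cell markers HBB, HBA1, HBA2 and ALAS2 had no count in either. Of the macrophage and leukocyte markers lysozyme, LYZ, was at 88.4 CPM with both drugs and 126 CPM with caffeine alone, while PTPRC, CD68 and CSF1R had 0 to 2 counts. Stellate and fibroblast markers summed to 47.1 CPM with both drugs and 28.97 CPM with caffeine alone, and LUM and THY1 had no count with both drugs. COL1A2, a collagen gene and the largest of them, had 143 counts with both drugs and 117 with caffeine alone.

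**Figure D3:**
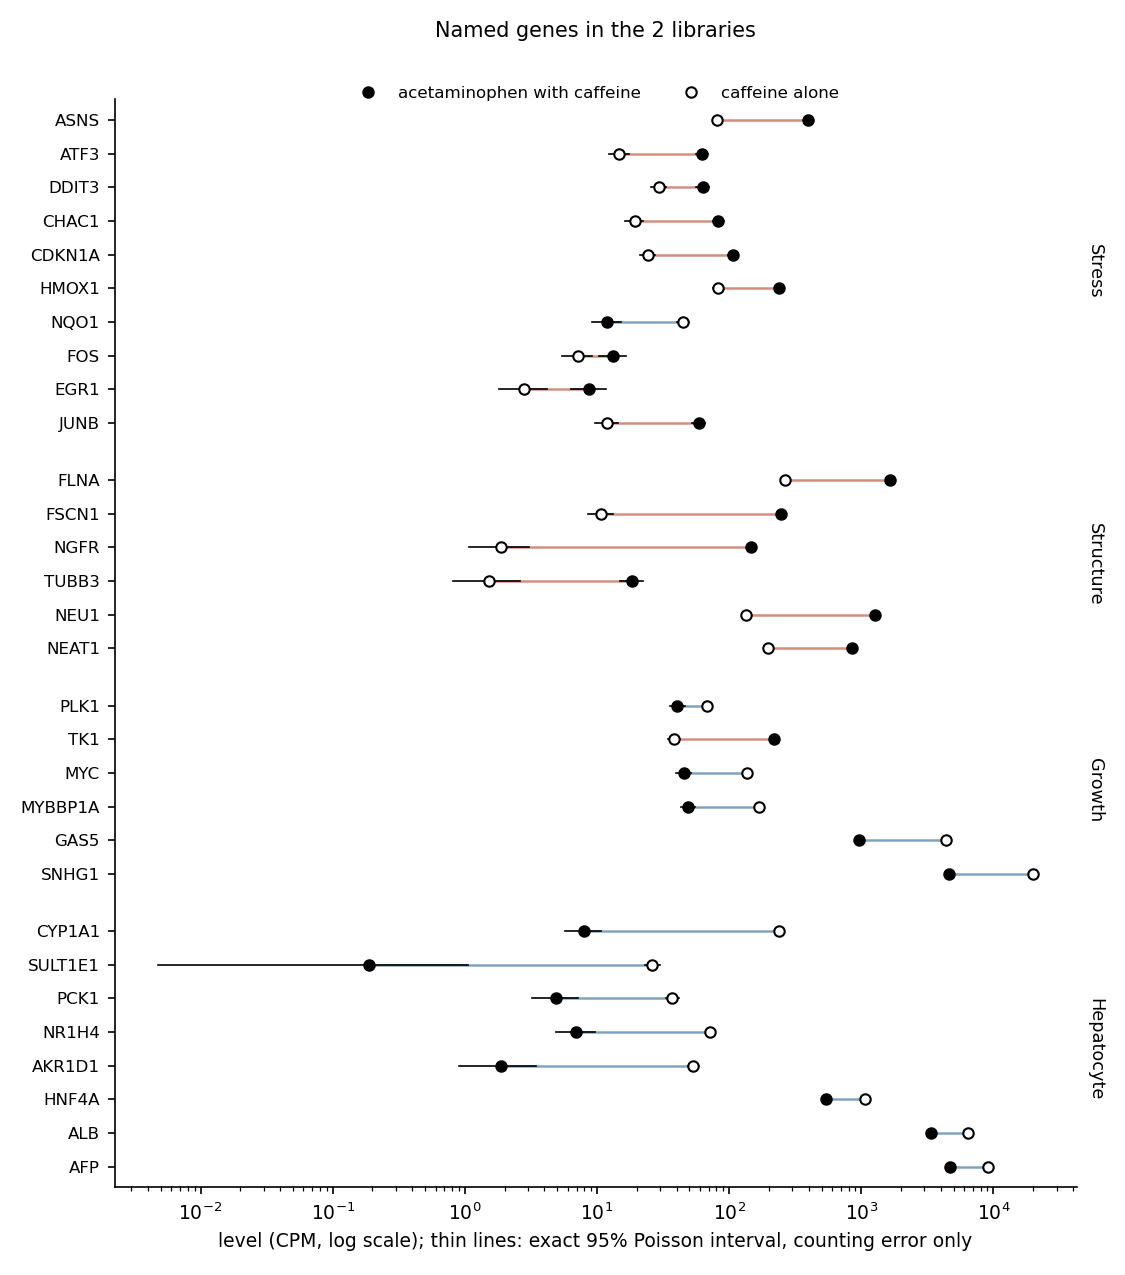
Levels in CPM (log scale) of named genes in acetaminophen with caffeine (filled points) and caffeine alone (open points), joined by a red line where higher and a blue line where lower with acetaminophen; thin black lines are exact 95% Poisson intervals. ASNS (396 CPM with both drugs and 80.8 CPM with caffeine alone) and FLNA (1642 CPM with both drugs and 266 CPM with caffeine alone) are among the genes higher, and CYP1A1 (7.94 CPM with both drugs and 237 CPM with caffeine alone) and AKR1D1 (1.89 CPM with both drugs and 53.6 CPM with caffeine alone) among those lower.

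Genes of growth were divided by function. Ribosome assembly factors, which process ribosomal RNA in the nucleolus, had 14 of 31 members apart lower (45.2%) and 0 higher. Their median was -0.89 (-0.95 without the GC and length trend). DDX21, a nucleolar helicase, was at 36.1 CPM with both drugs and 111 CPM with caffeine alone. WDR43, a subunit of the processing complex, was at 12.9 CPM with both drugs and 46.6 CPM with caffeine alone. The list medians on the other backgrounds were -0.82 with exosomes and -0.51 with neither. Cytoplasmic ribosomal protein genes, whose reads may be shared with pseudogene copies, had 9 higher (11.7%) and 2 lower (2.60%) of 77. The share higher was close to the 12.6% of all genes, and the lower share was smaller than theirs. Their median was 0.30 (0.41 without the GC and length trend).

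DNA replication genes had 8 of 34 members apart higher (23.5%) and 2 lower (5.88%). TK1, thymidine kinase, was at 219 CPM with both drugs and 38.2 CPM with caffeine alone. PCNA, the sliding clamp, was at 324 CPM with both drugs and 99.9 CPM with caffeine alone. POLE, a replicative polymerase, was at 415 CPM with both drugs and 129 CPM with caffeine alone. Mitosis genes leaned the other way, with 4 of 32 apart lower, 1 higher and a median of -0.35 (-0.32 without the GC and length trend); the share apart lower, 12.5%, is close to that of all genes. CCNB1, cyclin B1, was at 41.8 CPM with both drugs and 97.9 CPM with caffeine alone. AURKB, the kinase of the chromosomal passenger complex, was the member apart higher, at 158 CPM with both drugs and 72.1 CPM with caffeine alone. The polo kinase gene PLK1 was not apart, at 40.6 CPM with both drugs and 68.5 CPM with caffeine alone. Cholesterol synthesis genes had 7 higher (30.4%) and 1 lower (4.35%) of 23. TM7SF2, a sterol reductase, was at 432 CPM with both drugs and 49.0 CPM with caffeine alone. INSIG1, which holds back the SREBP factors, was at 291 CPM with both drugs and 80.2 CPM with caffeine alone. HMGCS1, the synthase at the head of the pathway, was lower, at 221 CPM with both drugs and 554 CPM with caffeine alone.

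Structural and signalling genes showed some of the largest differences among abundant transcripts. FLNA, filamin A, which crosslinks actin, was at 1642 CPM with both drugs and 266 CPM with caffeine alone (ratio 6.16, 5.89 to 6.46). On the other backgrounds it was lower with acetaminophen, at 1006 CPM with acetaminophen and exosomes and 1422 CPM with exosomes alone, and at 254 CPM with acetaminophen alone and 1136 CPM in the control. FSCN1, the bundling protein fascin, was at 248 CPM with both drugs and 10.7 CPM with caffeine alone, with 106 CPM in the control. The caffeine library was thus below the control for both genes. Of 27 genes of the actin and SRF list 7 were apart higher (25.9%) and 2 lower (7.41%). The median was 0.54 (0.35 without the GC and length trend), and those on the other backgrounds were -0.63 with exosomes and -0.92 with neither.

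Among receptors and ligands of the neurotrophin, Notch and axon guidance families 10 of 28 were apart higher (35.7%) and 5 lower (17.9%). The receptor gene NOTCH1 was at 363 CPM with both drugs and 38.9 CPM with caffeine alone. Its ligand DLL4 was at 61.0 CPM with both drugs and 2.70 CPM with caffeine alone. LFNG, a fringe glycosyltransferase that tunes Notch to its ligands, was at 80.7 CPM with both drugs and 3.05 CPM with caffeine alone. EFNB2, an ephrin ligand, was at 74.1 CPM with both drugs and 2.70 CPM with caffeine alone. NRP1, a coreceptor of semaphorins and VEGF, was lower, at 21.0 CPM with both drugs and 102 CPM with caffeine alone.

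Lysosome and autophagy genes had 8 of 25 members higher and 1 lower, with a median of 0.60 (0.52 without the GC and length trend). NEU1, the lysosomal sialidase, was at 1269 CPM with both drugs and 135 CPM with caffeine alone (ratio 9.39, 8.82 to 10.0). On the other backgrounds it was at 332 CPM with acetaminophen and exosomes and 122 CPM with exosomes alone, and at 138 CPM with acetaminophen alone and 116 CPM in the control. The autophagosome gene MAP1LC3B was at 77.5 CPM with both drugs and 16.0 CPM with caffeine alone. ULK1, the kinase that starts autophagy, was at 185 CPM with both drugs and 59.9 CPM with caffeine alone. The lysosomal transcription factor gene TFEB was lower, at 1.70 CPM with both drugs and 4.81 CPM with caffeine alone.

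Caffeine acts on adenosine receptors, phosphodiesterases and ryanodine receptors. Of 16 genes for these targets 0 were apart higher and 3 lower (18.8%, beside 13.0% of all genes), with a median of 0.19 that changed sign, to -0.11, once the GC and length trend was removed, and also once members under 10 counts were left out. The phosphodiesterase genes PDE3A and PDE4D, which break down cyclic AMP, were among those lower, at 30.2 and 12.9 CPM with both drugs, against 78.6 and 28.5 CPM with caffeine alone. Among clock genes BHLHE40 and PER2, which repress the clock's activators, were at 12.1 and 12.1 CPM with both drugs, against 72.6 and 70.5 CPM with caffeine alone. Splicing factors of the SR family with their CLK kinases had 0 higher and 0 lower of 18, and nuclear genes of oxidative phosphorylation 1 and 1 of 43.

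Of 30 proteasome subunit genes 1 was apart higher and 0 lower, a smaller share than over all genes. Fatty acid synthesis genes, with 2 higher and 2 lower of 15, were close to the share over all genes. Interferon-stimulated genes had 3 higher (17.6%) and 3 lower (17.6%) of 17, with a median whose sign changed once the GC and length trend was removed. ISG15, a ubiquitin-like modifier, was at 76.0 CPM with both drugs and 13.1 CPM with caffeine alone. Glycolysis and hypoxia genes had 7 higher (30.4%) and 2 lower (8.70%) of 23. The glucose transporter gene SLC2A1 was higher, at 109 CPM with both drugs and 45.6 CPM with caffeine alone, and the lactate dehydrogenase gene LDHA lower, at 221 CPM with both drugs and 530.0 CPM with caffeine alone. Aminoacyl-tRNA synthetase genes, many of which ATF4 regulates, had 1 higher (5.00%) and 3 lower of 20, the share lower (15.0%) being close to that of all genes. Metallothioneins and zinc response genes had 3 higher (27.3%) and 1 lower (9.09%) of 11. Among those higher MT2A was at 5.48 CPM with both drugs and 0.587 CPM with caffeine alone, with 43.5 CPM in the control. MT1M, also apart higher, had only 4 counts with both drugs and 0 with caffeine alone. The list summed to 84.1 CPM with both drugs, 127 CPM with caffeine alone and 169 CPM in the control. The near-identical copies of this family make single levels uncertain. Extracellular matrix and integrin genes had 5 higher and 2 lower of 25. The protease inhibitor gene TIMP2 was at 84.8 CPM with both drugs and 14.3 CPM with caffeine alone. Pump and channel genes had 6 higher and 1 lower of 20. ITPR1, the calcium release channel opened by inositol trisphosphate, was at 202 CPM with both drugs and 24.5 CPM with caffeine alone. Oncofetal, progenitor and biliary markers had 1 higher (6.67%) and 4 lower (26.7%) of 15. PROM1, the stem cell surface protein CD133, was at 11.0 CPM with both drugs and 129.6 CPM with caffeine alone. IGF2BP1, an RNA-binding protein of fetal tissue, was at 82.4 CPM with both drugs and 403 CPM with caffeine alone.

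Small RNA genes differed by class. The groups by box class and the mitochondrial groups were formed after their values were seen. Small nucleolar RNA genes, which guide chemical modification of ribosomal RNA, had 95 of 177 apart lower (53.7%, beside 13.0% of all genes) and 9 higher. C/D box members, which guide methylation, had 51 of 69 apart lower and 4 higher with a median of -2.19. H/ACA box members, which guide pseudouridylation, had 36 of 72 lower and 3 higher with a median of -1.04. The small RNA and mitochondrial medians given here keep the GC and length trend. For the C/D box genes SNORD6 and SNORD111, among the noncoding genes farthest lower, the fitted trend was -1.10 and -1.31. Their log2 ratios were -2.86 and -3.84. C/D box members summed to 42850 CPM with both drugs, 56181 CPM with caffeine alone and 28446 CPM in the control. For H/ACA box members the sums were 27491, 24024 and 16057 CPM in the same order. The H/ACA sum was thus higher with both drugs than with caffeine alone, although most members were lower. Small nuclear RNA genes had 13 of 161 apart lower (8.07%) and 12 higher with a median of 0.20, and the class of miscellaneous RNAs 12 of 297 lower (4.04%) and 26 higher with a median of 0.38, both below the share of all genes apart lower. SNORD104 was at 1091 CPM with both drugs and 6228 CPM with caffeine alone, with 995 CPM in the control. SNORD100 was at 1711 CPM with both drugs and 6416 CPM with caffeine alone, with 1848 CPM in the control. SNORD3A, the U3 RNA that takes part in cleavage of the ribosomal RNA precursor, was higher, at 22504 CPM with both drugs and 5306 CPM with caffeine alone. Several of these RNAs have near-identical copies, so single levels are uncertain. By share of all counts, small nucleolar RNA genes took 6.97% with both drugs and 8.49% with caffeine alone, and small nuclear RNA genes took 2.00% with both drugs and 6.31% with caffeine alone. The host genes that carry such RNAs in their introns had 6 of 14 apart lower (42.9%) and 0 higher. SNHG1 was at 4602 CPM with both drugs and 19750.4 CPM with caffeine alone, beside 22166 CPM with acetaminophen alone and 4896 CPM in the control. GAS5 was at 960.4 CPM with both drugs and 4376 CPM with caffeine alone, beside 4256 CPM with acetaminophen alone and 1792 CPM in the control. For both genes the library with both drugs was below the control and that with caffeine alone above it.

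The mitochondrial genome was split by the kind of RNA. All 22 mitochondrial transfer RNA genes were apart lower, with log2 ratios from -2.71 to -1.36 and a median of -2.02. They summed to 828 CPM with both drugs and 3864 CPM with caffeine alone, with 1323 CPM in the control. MT-TS2, the most abundant of them, was at 293 CPM with both drugs and 1151 CPM with caffeine alone. None of the 13 mitochondrial messenger RNAs was apart, with a median of 0.01, and MT-CO1, a subunit of cytochrome oxidase, was at 2323 CPM with both drugs and 1939 CPM with caffeine alone. The ribosomal RNA genes MT-RNR1 and MT-RNR2 were at 5974 and 7649.8 CPM with both drugs, against 3068 and 5362 CPM with caffeine alone, also not apart. With exosomes as background the transfer RNA median was 0.62, with 19 of 22 higher by sign, and with neither it was -0.61, with 4 of 22 higher. Genes whose longest transcript was under 150 bases, many of them the small RNAs above, had 144 of 413 apart lower and 11 higher. Those of 150 to 300 bases had 14 of 298 lower and 36 higher, with a median of 0.55. Length and RNA class overlap here, and their parts in the small RNA differences were not tested.

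**Figure D4:**
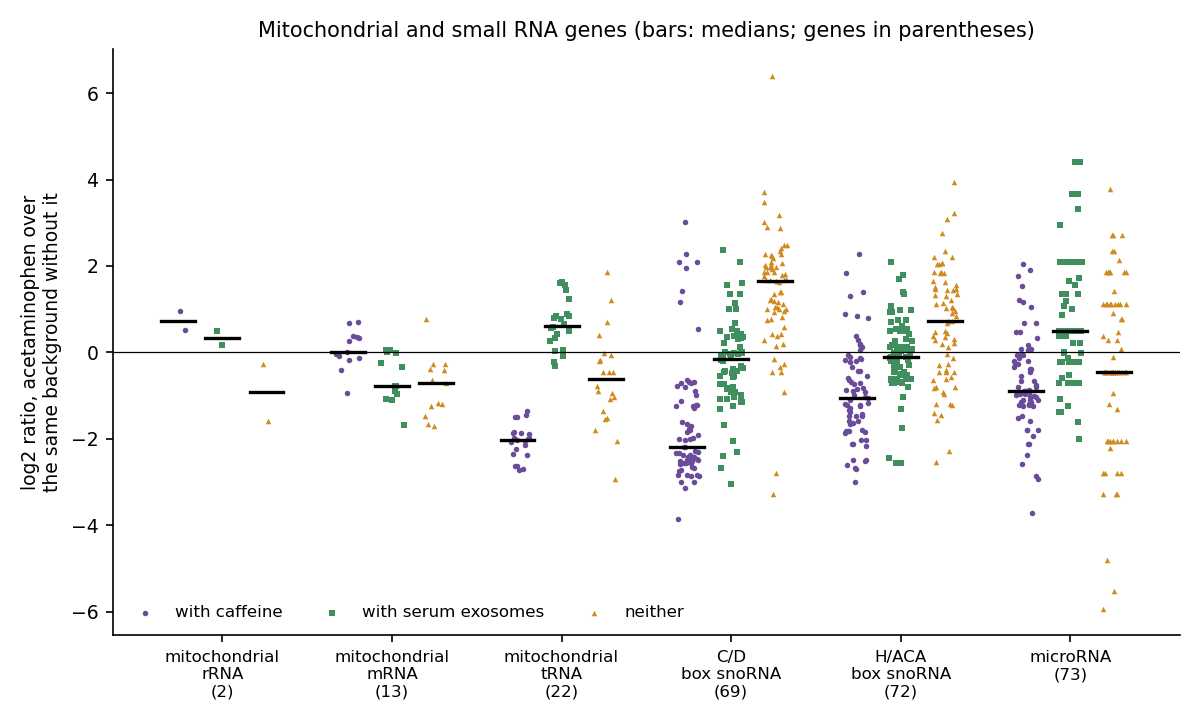
Log2 ratio of acetaminophen over the same background without it for mitochondrial and small RNA genes (points; numbers of genes in parentheses), with caffeine (circles), serum exosomes (squares) or neither (triangles) as background, and medians as bars. The 22 mitochondrial transfer RNAs and the C/D box RNAs lie below 0 with caffeine (medians -2.02 and -2.19), while C/D box RNAs lie above 0 with neither (median 1.66).

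Single longer noncoding RNAs also differed. NEAT1, the RNA scaffold of paraspeckles, was apart higher on each background. It was at 846 CPM with both drugs and 198 CPM with caffeine alone, at 449 CPM with acetaminophen and exosomes and 184 CPM with exosomes alone, and at 311 CPM with acetaminophen alone and 127 CPM in the control. Its edgeR adjusted p over the 3 backgrounds was 0.667. MALAT1, the speckle-associated RNA beside which it lies in the genome, was at 2849 CPM with both drugs and 1409 CPM with caffeine alone. LINC02432 was among the noncoding genes farthest above its caffeine level, at 207 CPM with both drugs and 17.8 CPM with caffeine alone. LINC02532 was lower, at 0.378 CPM with both drugs and 19.9 CPM with caffeine alone. Reads in overlapping or antisense genes cannot be assigned by strand here.

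Setting the backgrounds side by side, 952 genes (5.22%) were apart higher and 938 (5.14%) lower with exosomes, and 2375 (13.0%) and 2215 (12.1%) with neither. Of the 2293 genes apart higher with caffeine, 427 were also apart higher with exosomes (18.6% of the caffeine list and 44.9% of the exosome list) and 14 apart lower. With neither, 336 were apart higher (14.7% and 14.1%) and 282 apart lower. Of the 2371 apart lower, 410 were also lower with exosomes (17.3% and 43.7%) and 34 higher, and 371 were lower with neither (15.6% and 16.7%) and 263 higher. By sign alone, 50.1% of all genes were above and 49.9% below 0 with caffeine, 51.9% and 48.1% with exosomes, and 46.0% and 54.0% with neither. On all 3 backgrounds 101 genes were apart higher and 124 lower, 98 and 116 of them protein-coding.

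SLIT2, a secreted guidance factor, was among the genes apart in the same direction on all backgrounds. It was at 301 CPM with both drugs and 27.2 CPM with caffeine alone, at 26.8 CPM with acetaminophen and exosomes and 5.69 CPM with exosomes alone, and at 53.5 CPM with acetaminophen alone and 2.90 CPM in the control. GLIPR2, a Golgi-associated protein, was also higher on each, at 26.3 CPM with both drugs and 0.704 CPM with caffeine alone, at 25.5 CPM with acetaminophen and exosomes and 5.09 CPM with exosomes alone, and at 27.4 CPM with acetaminophen alone and 1.94 CPM in the control. Of the lower genes, FGF19 was at 7.65 CPM with acetaminophen and exosomes and 32.0 CPM with exosomes alone, and at 7.04 CPM with acetaminophen alone and 32.9 CPM in the control, beside the caffeine values above. TM4SF4, a tetraspanin-like membrane protein, was at 1.89 CPM with both drugs and 52.0 CPM with caffeine alone, at 1.28 CPM with acetaminophen and exosomes and 17.7 CPM with exosomes alone, and at 0.704 CPM with acetaminophen alone and 12.6 CPM in the control. The acetaminophen levels of TM4SF4 with exosomes and with neither lie under the 3-count floors of those libraries, 3.83 and 2.11 CPM.

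**Figure D5:**
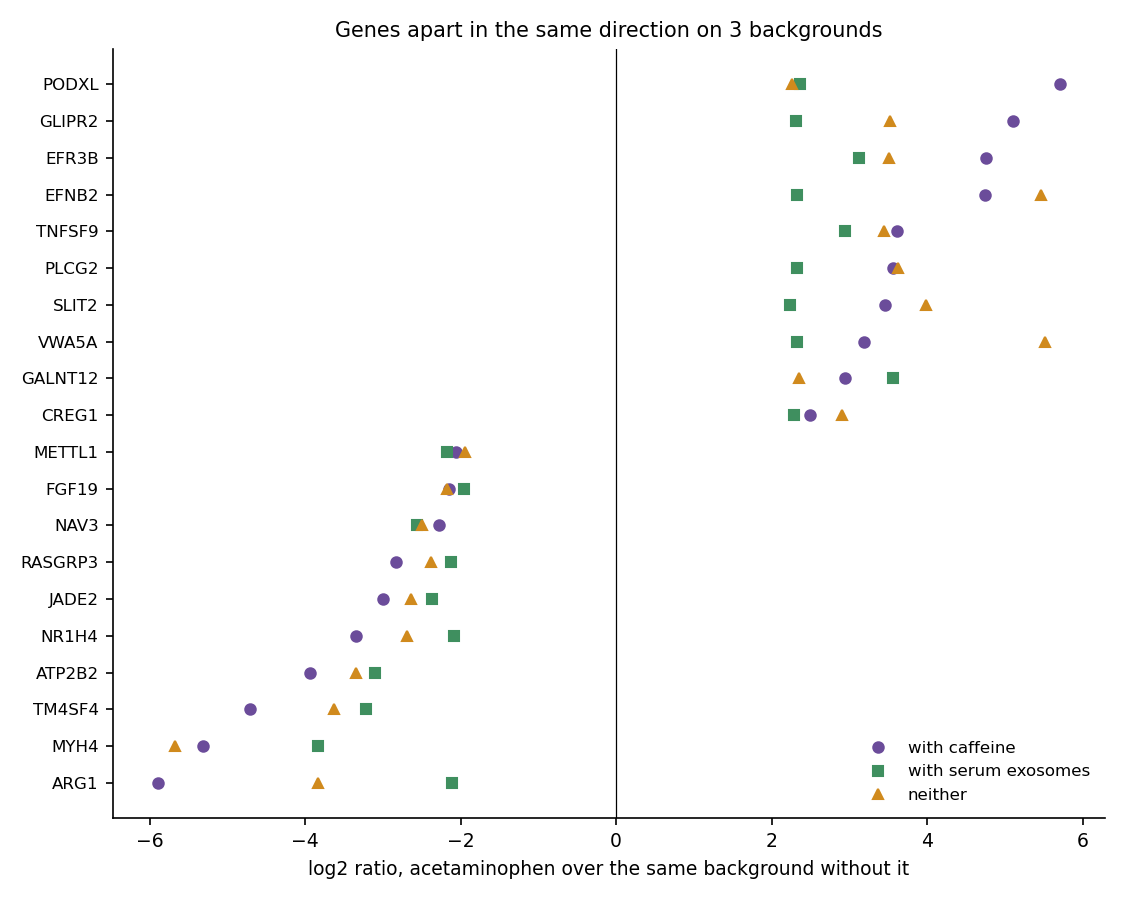
Log2 ratio of acetaminophen over the same background without it for protein-coding genes named because they were apart in the same direction on 3 backgrounds, with caffeine (circles), serum exosomes (squares) or neither (triangles). The 3 points of each gene lie on the same side of 0 by the choice of genes; SLIT2 (301 CPM with both drugs and 27.2 CPM with caffeine alone) is among those higher and TM4SF4 (1.89 CPM with both drugs and 52.0 CPM with caffeine alone) among those lower.

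The only spread that the models can use is the departure from additive effects across all 9 libraries. It includes differences among the 3 arsenic libraries, which share a single arsenic term with no term for dose or copper. In the additive edgeR quasi-likelihood model with Benjamini-Hochberg adjustment over all genes, 4 genes were called for acetaminophen (0.0219%), 1 higher and 3 lower, and 973 had an unadjusted p under 0.05. They were EFR3B, higher (adjusted p 0.0148), and MYH4, ATP2B2 and TM4SF4, lower (adjusted p 0.00281, 0.0102 and 0.0189). EFR3B, which anchors a lipid kinase at the plasma membrane, was at 90.1 CPM with both drugs and 3.28 CPM with caffeine alone. ATP2B2, a plasma membrane calcium pump, was at 9.45 CPM with both drugs and 146 CPM with caffeine alone. MYH4, a muscle myosin, was at 0.567 CPM with both drugs and 26.2 CPM with caffeine alone, the value with both drugs being no more than the floor of 3 counts. The 3 protein-coding genes farthest above their caffeine level missed the threshold, with edgeR adjusted p of 0.0863 for ATP1B2, 0.103 for AHNAK2 and 0.298 for NGFR. MYH4 and TM4SF4 were among the protein-coding genes farthest below it.

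Whether acetaminophen acted differently in caffeine-treated cells was asked with an interaction term. EdgeR called 0 of 18237 genes for it, 198 had an unadjusted p under 0.05, and DESeq2 also called 0, with 105 at an unadjusted p under 0.05. A single library carries this term, and the model keeps 3 residual degrees of freedom. The 5 genes of smallest p were FSCN1, LFNG, CYP1A1, CORO6 and B3GNT5, each at an edgeR adjusted p of 1. CORO6, a coronin that binds actin, was at 14.4 CPM with both drugs and 0.235 CPM with caffeine alone. B3GNT5, which starts lacto-series glycolipids, was at 0.945 CPM with both drugs and 9.50 CPM with caffeine alone.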

How the data were processed

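Counts per gene of HuH-7 cells in 9 conditions, 1 library each, were used as the authors deposited them, unnormalized. Per the labels' protocols, total RNA (mirVana kit) was depleted of ribosomal RNA (RiboMinus) and converted to libraries (Ion Total RNA-Seq Kit v2), and the series text names an Ion Torrent Proton sequencer. The submitters' processing notes name TopHat2 2.0.13, HTSeq 0.6.1 and the genome build GRCh37. Neither the annotation release nor the strand setting is given in the sources used here. Antisense and overlapping genes, and families with near-identical copies, are therefore uncertain.

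Summary lines that name no gene took 55.8% of the reads with acetaminophen and caffeine and 57.5% with caffeine alone and were left out. A gene was kept if 2 or more libraries reached 1 CPM for it (18237 genes), and levels were scaled by TMM over the 9 libraries. Ratios carry exact conditional binomial 95% intervals, single levels exact Poisson intervals, and 3 counts (0.567 CPM with acetaminophen and caffeine, 0.352 CPM with caffeine alone) are the floor for a gene with no count. All of these cover counting error only. The pair statistics were tested on simulated data.

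The additive edgeR model (4 residual degrees of freedom, dispersion 0.283) and the model with an acetaminophen by caffeine term (3, dispersion 0.315) used all 9 libraries, with calls at an adjusted p under 0.05. In both models the 3 arsenic libraries shared a single arsenic term, so arsenic dose and copper differences count towards the dispersion. Models were run in R 4.3.3 (edgeR 4.0.16, limma 3.58.1, DESeq2 1.42.0); ratios, intervals and plots came from Python 3.11.15 (scipy 1.17.1, numpy 2.4.6, matplotlib 3.10.9, pandas 2.3.3). The genes compared and the 49 gene lists (1075 of 1098 entries matched, 1009 compared) were chosen with earlier results of these data known. Gene names and types came from GENCODE 29 and RefSeq tables, and promoters from RefSeq (GRCh38.p14), with no coordinates converted.

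Genes were named by rule: the 15 protein-coding genes highest and 15 lowest, and 5 highest and 5 lowest of other types, by the interval bound nearest to 1; the 10 most abundant in each library; up to 2 a direction per list and key enzymes; up to 10 a direction apart on all 3 backgrounds; and the 5 of smallest interaction p. Some genes that this rule names are not reported here. Further members of lists, the RNAs of the small RNA groups and the mitochondrial genes were chosen after their values were seen. Alternatives were other scalings, count filters, folds, prior counts, removal of GC and length trends, DESeq2, the 6 libraries without arsenic and each library left out.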

Additional observations from a re-analysis of the deposited data

Results flagged for a closer look

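Some gene groups lay in opposite directions with acetaminophen on different backgrounds, and none of these differences was tested as such, since each background has 1 library a side. For this comparison medians were taken over members with at least 10 counts in a library of each pair. Integrated stress response genes had a median log2 ratio of 0.73 with caffeine and -0.62 with neither caffeine nor exosomes (24 genes, 18 and 11 higher by sign), and genes of the BCL2 family 0.62 and -0.77 (11 genes, 7 and 3 higher). Actin and SRF target genes had 0.57 with caffeine and -0.62 with exosomes (26 genes, 21 and 2 higher), and 0.54 with caffeine and -0.92 with neither (25 genes, 20 and 4 higher).

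Small RNA genes, grouped after their values were seen, stood out in the same way. Mitochondrial transfer RNAs had a median of -2.01 with caffeine and 0.67 with exosomes (21 genes, 0 and 18 higher), and over all 22 genes -0.61 with neither (4 higher). C/D box RNAs had -2.33 with caffeine and 1.70 with neither (57 genes, 4 and 53 higher), and H/ACA box RNAs -0.93 and 0.84 (59 genes, 12 and 41 higher). Log2 ratios went up with GC content in the caffeine pair (Pearson's r 0.217 across genes) and down in the pair with neither (r -0.486), and the part of this trend in these differences was not tested.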

How the results depend on the processing

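The pair has no replicate, so its ratios rest on a single culture a side. Of the 4664 genes apart, other scalings, filters, a prior count of 2 and removal of the GC and length trend gave 4291 to 4918; at 4-fold 1599 were apart (792 higher, 807 lower). Scaling by total counts gave 2038 higher and 2695 lower, and TMM over protein-coding genes alone 2543 and 2099, since these scalings shift all log2 ratios of the pair by -0.09 and 0.10. List medians closer to 0 than that have no settled direction: with DESeq2 size factors (shift 0.04) the aryl hydrocarbon receptor axis and gluconeogenesis lists changed sign. Removing the GC and length trend turned 5 lists, those of adenosine receptors and phosphodiesterases, interferon-stimulated genes, histones, and stellate and endothelial markers. The first of these 5 also turned with a minimum of 10 counts.

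The 4 genes called for acetaminophen became 46 with no count filter, 49 with DESeq2 and 240 without the arsenic libraries. Leaving out each library gave 0 to 179: 0 without the control, acetaminophen, caffeine or acetaminophen with caffeine library, 1 without either exosome library, and 179, 113 and 25 without arsenic at 5 µM, at 15 µM or with copper. The interaction term called 0 genes under every alternative run. No paired analysis was possible because the conditions, with 1 library each, share no replicate numbers; the 3 backgrounds with and without acetaminophen are instead paired through the terms of the additive model, which without the arsenic libraries called 118 genes higher and 122 lower.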
